A study of Mus musculus with 4 samples.

Results

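The 5 autosomal Gata genes Gata2, Gata3, Gata4, Gata5 and Gata6 were followed in mouse liver by enhanced reduced representation bisulfite sequencing (ERRBS). In this assay genomic DNA is cut, here with MspI by the labels (the study's general account of the method also names TaqαI), short fragments are bisulfite-treated and sequenced, and the methylation level of a cytosine is the percentage of its reads that still show C. Liver came from 4 male mice of 6 to 8 weeks: the mice called Mixed-1 and Mixed-2 had an undefined mixed background that included C57BL/6J, and those called B6-1 and B6-2 were C57BL/6 ("Black-6" in the labels). The mixed and the B6 mice were housed at different institutions, and the B6 libraries were deeper, so strain, housing and depth cannot be told apart. No mouse carried a named allele or received a treatment.

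The members were every cytosine read at least 10 times in all 4 mice that lay inside a RefSeq gene of the 5 or within 5000 bp of either end. There were 1220 of them among the 1276684 cytosines common to the 4 mice: 283 at Gata2, 264 at Gata3, 289 at Gata4, 108 at Gata5 and 276 at Gata6. The C on either strand of a CpG was kept as a separate site. Every member was placed in one of 3 compartments. The promoter reached 1000 bp to each side of the start of a curated transcript, the body was the rest of the gene and the flank was the 5000 bp beyond either end. Coverage at the members ran from 10 to 248 reads. Bisulfite reads do not tell 5-methylcytosine from 5-hydroxymethylcytosine, and a level from bulk liver averages over all its cell types. RNA was not analysed here, so whether a gene is transcribed in these livers was not measured.

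The members lay in mm10 at Gata2 (chromosome 6, 88193891 to 88207032, plus strand), Gata3 (chromosome 2, 9857078 to 9887953, minus strand), Gata4 (chromosome 14, 63198914 to 63271712, minus strand), Gata5 (chromosome 2, 180325088 to 180335503, minus strand) and Gata6 (chromosome 18, 11052510 to 11085636, plus strand). Gata2 had 2 curated starts, 4773 bp apart, and the others had 1. Predicted RefSeq transcripts of Gata3 and Gata4 began far upstream of the curated start, so that 134 of the 210 body cytosines of Gata3 and 142 of the 220 of Gata4 were covered by predicted transcripts only. The windows overlapped other genes, among them the antisense RNAs Gata5os and Gata6os and, downstream of Gata4, the repair gene Neil2. A level there belongs to the DNA and cannot be given to either gene.

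GATA factors are zinc finger proteins that bind the letters GATA in DNA. GATA4 and GATA6 act in endoderm and heart and are needed for liver development, and GATA4 is also known for its role in the endothelium of the liver sinusoids. GATA2 acts in blood stem cells, mast cells and endothelium, GATA3 in T cells, and GATA5 in endoderm and heart. In mammals, CpG-rich promoters are usually free of methylation whether or not the gene is active, while bodies of genes are usually methylated.

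The start windows below carry the finding that opens the results, a promoter almost free of methylation. They are RefSeq's GRCm38.p6 sequences of 300 bases around the start, most of it upstream, printed along the gene's strand, with capitals for each CpG at which a member cytosine was read. The table used held windows for Gata2, Gata3 and Gata5 (4 windows in all), at chr6:88193641-88193940 and chr6:88198414-88198713 for the 2 starts of Gata2 on the plus strand, chr2:9878551-9878850 for Gata3 and chr2:180334630-180334929 for Gata5 on the minus strand.
Gata2 first start: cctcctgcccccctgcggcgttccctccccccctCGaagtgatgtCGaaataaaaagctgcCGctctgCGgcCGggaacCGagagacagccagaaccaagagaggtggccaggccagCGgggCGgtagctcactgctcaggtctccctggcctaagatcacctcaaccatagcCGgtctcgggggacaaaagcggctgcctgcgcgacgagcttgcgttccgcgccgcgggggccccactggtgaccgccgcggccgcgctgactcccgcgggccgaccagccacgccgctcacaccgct
Gata2 second start: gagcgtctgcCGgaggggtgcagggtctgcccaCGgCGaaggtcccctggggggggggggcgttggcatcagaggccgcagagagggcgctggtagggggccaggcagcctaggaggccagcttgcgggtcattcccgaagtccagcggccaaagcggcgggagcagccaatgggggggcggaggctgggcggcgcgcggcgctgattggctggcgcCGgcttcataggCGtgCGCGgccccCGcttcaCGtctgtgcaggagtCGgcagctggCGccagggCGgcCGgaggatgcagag
Gata3: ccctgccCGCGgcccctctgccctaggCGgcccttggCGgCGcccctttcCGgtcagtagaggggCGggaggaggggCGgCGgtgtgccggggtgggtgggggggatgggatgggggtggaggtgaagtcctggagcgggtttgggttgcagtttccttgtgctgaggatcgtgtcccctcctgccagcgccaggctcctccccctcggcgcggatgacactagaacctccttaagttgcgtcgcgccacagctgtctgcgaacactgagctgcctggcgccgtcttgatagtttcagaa
Gata5: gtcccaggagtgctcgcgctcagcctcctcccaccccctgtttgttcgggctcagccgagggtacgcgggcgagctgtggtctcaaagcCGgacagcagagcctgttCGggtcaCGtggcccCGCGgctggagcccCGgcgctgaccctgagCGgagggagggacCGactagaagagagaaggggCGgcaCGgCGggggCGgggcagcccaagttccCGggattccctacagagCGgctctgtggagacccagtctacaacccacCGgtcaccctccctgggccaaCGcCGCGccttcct

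These windows are dense in CpG. They held between 22 and 32 CpGs each, which put them between the 76.9th and the 90.5th percentile of all promoter windows of that length, and the cut site of MspI (CCGG) occurred 2 to 4 times in each. The number of CpGs read in all mice was 9 of 32 at the first Gata2 start, 13 of 29 at the second, 9 of 22 at Gata3 and 18 of 26 at Gata5. The highest mean of any cytosine in these windows was 5.27%, at Gata5. A GATA motif (GATA with A or T before it and A or G after it, either strand) stood in 1 of the windows, that of Gata3, as TGATAG, and 29.8% of all 32851 promoter windows hold one.

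All 5 promoters had a low level in all 4 mice. The lowest was Gata6, at 0.11% in both Mixed-1 and Mixed-2, 0.14% for B6-1 and 0.19% for B6-2 over 26 cytosines. No cytosine of it had a mean above 0.81%. All 26 lay 99 to 850 bp downstream of the start, so the upstream side of this promoter holds no member. Gata3 had 0.75%, 0.89%, 0.50% and 0.89% in the same order of mice over 34 cytosines. Gata4 had 0.92%, 0.64%, 1.07% and 0.93% over 63 cytosines. Among these 3 the mice of Gata3 and Gata4 overlapped, and Gata6 lay below both in every mouse.

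Gata2 had 1.93%, 1.91%, 1.77% and 1.75% over the 118 cytosines of its 2 promoters. The first promoter averaged 1.39% ± 0.32 (SD, n = 4 mice) and the second 2.17% ± 0.10. The second, inside the first intron, also held the highest promoter cytosine of the gene, at base 88198009 on the reverse strand, with 35.1%, 21.5%, 23.9% and 20.9%. It was the only one of the 118 with a mean of 20% or more.

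Gata5 had the highest promoter mean, at 8.39%, 7.86%, 8.97% and 8.80% over 96 cytosines, and each mouse of it lay above each mouse of the other genes. Most of this level came from a few cytosines. The 58 cytosines within 500 bp of the start averaged 1.64% ± 0.23 (SD, n = 4 mice), and the 30 from 500 to 1000 bp into the gene averaged 6.64% ± 0.89. The 8 cytosines from -857 to -747 bp of the start averaged 65.3% ± 4.5, with single means from 36.1% to 99.2%. The single highest was base 180335491 on the reverse strand, at 100%, 97.0%, 100% and 100%. The forward cytosine of the same CpG had 59.1%, 65.8%, 75.5% and 72.3%. In the other 4 genes no promoter cytosine had a mean above that of the Gata2 cytosine just given. From -1000 to -500 bp of the start, Gata3 had 2 cytosines at 0% and Gata4 had 4 at 0.50%. Gata6 and the first Gata2 start had none there, so the promoter means do not compare like positions.

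All 5 promoters were thus under 20%, the bound used here for an unmethylated region, and so were 91.2% of the 14912 genes with at least 5 promoter cytosines. The state was that of most genes. Within it the 5 genes stood at different places: Gata6 at the 25.3rd percentile of all promoter means, Gata3 at the 61.1st, Gata4 at the 63.3rd, Gata2 at the 73.4th and Gata5 at the 87.3rd. The median promoter had 0.32%.

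**Figure D1:**
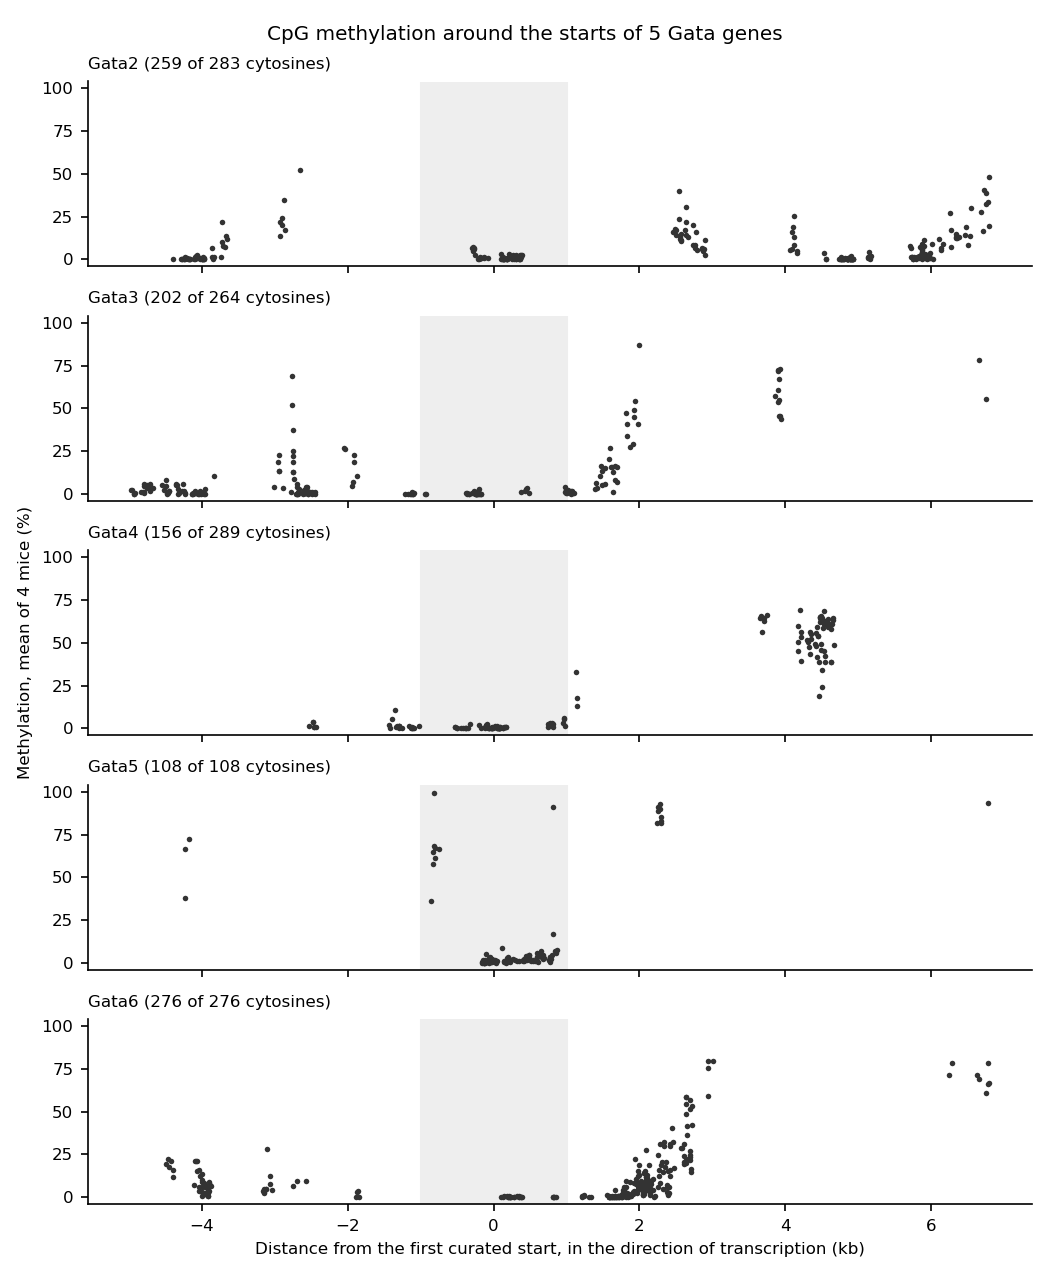
Methylation of each member cytosine (mean of 4 mice, in percent) against its distance in kb from the first curated start, for 5 genes, from 5 kb upstream to 7 kb downstream; the grey band marks 1 kb to each side. Levels are near 0 around all 5 starts, climb through the second exon of Gata6, and stand near 55% in the second exon of Gata4 and above 80% in the second exon of Gata5.

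The bodies of the genes separated Gata5 from the others. Gata5 had 88.6%, 89.6%, 84.8% and 87.3% in the same order, but over 9 body cytosines, 8 of which lay in exon 2. All 9 had means above 80%. The body means of the other 4 genes lay between 10.6% and 23.8% in every mouse. Gata2 had 14.2%, 15.5%, 13.2% and 12.6% over 112 cytosines. Gata3 had 22.7%, 22.5%, 21.3% and 21.3% over 210. Gata4 had 23.8%, 23.1%, 21.8% and 22.5% over 220. Gata6 had 18.7%, 14.3%, 13.4% and 10.6% over 196. The order from the lowest was Gata2, Gata6, Gata3, Gata4 and Gata5. Neighbours in the order, Gata2 with Gata6 and Gata3 with Gata4, overlapped between mice.

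Against all genes, the body means other than that of Gata5 were low. The median of 11442 gene bodies with at least 5 cytosines was 77.4%. Gata2 stood at the 9.33rd percentile, Gata6 at the 9.55th, Gata3 at the 12.4th, Gata4 at the 12.7th and Gata5 at the 74.6th. The means of Gata3 and Gata4 include 134 and 142 cytosines covered by predicted transcripts only, at 5.36% and 4.87%. The rest of the Gata3 body had 67.0% over 41 exon cytosines and 32.8% over 35 intron cytosines. That of Gata4 had 54.8% over 65 and 58.4% over 13. Gata2, Gata3, Gata4 and Gata6 also had many body cytosines in reach of the assay, at or above the 94.9th percentile of genes, while Gata5 was at the 22.3rd. ERRBS reads CpG-dense DNA, so a body mean is the mean of its CpG-dense parts.

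Along each gene the level changed with position. Exons and introns are numbered here on 1 curated transcript of each gene, and their counts include cytosines that also lie in a promoter. At Gata2 it stayed low in the 5' part, with 4.55% ± 0.49 (SD, n = 4 mice) over 119 cytosines of intron 1 and 3.52% ± 0.59 over 33 of exon 2. It reached 22.8% ± 1.5 over 18 cytosines of exon 3 and 20.5% ± 0.5 over 8 of exon 5. Intron 3 had 59.1% ± 5.8 over 2 cytosines, intron 4 had 21.4% ± 9.5 over 3 and intron 5 had 24.5% ± 3.5 over 6. Exon 6, the last, held no member. No body cytosine of Gata2 had a mean above 80%. Downstream of the gene, 2 flank cytosines averaged 87.0% ± 3.3.

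At Gata3 a low 5' part was followed by a high 3' part. Exon 2, with 11 cytosines, had 1.29% ± 0.51 (SD, n = 4 mice). In intron 2 the 22 cytosines between 1500 and 2000 bp from the start had 27.9% ± 4.2, with single means from 1.06% to 86.8%. Exon 3 had 58.8% ± 7.9 over 11 cytosines, exon 4 had 88.5% ± 5.9 over 4 and exon 6, the last, had 91.5% ± 1.1 over 18. The part upstream of the curated start, covered by predicted transcripts only, had 5.36% ± 0.49 over 134 cytosines.

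At Gata4 the same mean hid another arrangement. Upstream of the curated start, in the part of predicted transcripts only, 142 cytosines averaged 4.87% ± 0.30 (SD, n = 4 mice), and 72 of them, 10 to 11 kb upstream, averaged 0.45% ± 0.16. Exon 1 had 0.42% ± 0.20 over 16 cytosines. Exon 2, which holds the start codon, had 57.2%, 55.7%, 53.0% and 53.4% over 65 cytosines, and 64 of the 65 had means between 20% and 80%. Intron 2 had 65.4% ± 4.2 over 8 cytosines. Exon 2 held 2 CpG islands by the usual rule of length, GC content and CpG ratio, at 54.5% ± 0.8 over 45 cytosines and 52.2% ± 8.0 over 14.

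Gata6 also has its start codon in exon 2, and there the level was another. Its 168 cytosines had 13.4%, 9.97%, 8.83% and 5.93%. The level climbed along the exon and into intron 2. From 1500 to 2000 bp from the start, 74 cytosines averaged 3.05% ± 1.24 (SD, n = 4 mice), from 2000 to 2500 bp 79 averaged 10.9% ± 4.1 and from 2500 to 3500 bp 29 averaged 39.4% ± 7.8. Between 6000 and 7000 bp, 8 cytosines averaged 70.5% ± 4.2. The exon contained an island of 809 bp with 106 CpGs, at 8.27% ± 3.2 over 130 cytosines. Exon 2 was below exon 2 of Gata4 in every mouse, and the highest mouse of Gata6 lay well under the lowest of Gata4. Exon 2 lies 1526 to 2679 bp from the start at Gata6 and 3626 to 4735 bp at Gata4, so like distances are not compared. These 2 exons were set side by side after their values were seen, and the difference was not tested.

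**Figure D2:**
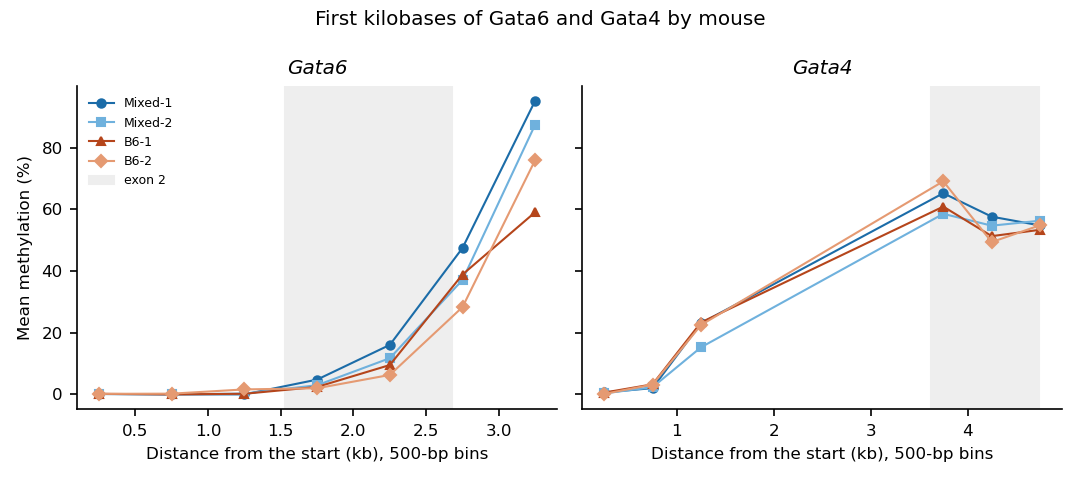
Mean methylation (percent) in 500-bp bins against the distance in kb from the curated start of Gata6 (left) and Gata4 (right), 1 line for each mouse, with exon 2 shaded. Gata6 climbs through exon 2, with Mixed-1 highest and B6-2 lowest from 1.5 to 3 kb, and Gata4 is partly methylated throughout its exon 2 in all 4 mice.

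The stretch of consecutive cytosines under 20% that held the start was taken as the reach of the unmethylated state at the cytosines read. In the mean of the mice it was shortest at Gata5, 979 bp and 84 cytosines, and in Mixed-1 the run of Gata2 was shorter still. The Gata5 length came out in each of the 4 mice and also with a bound of 50%, because the next cytosine read was at 66.8% on the upstream side and at 91.3% on the downstream side. The run was 2798 bp at Gata2, 3401 bp at Gata3, 4999 bp at Gata6 and 25307 bp at Gata4. By mouse the Gata2 run was 681, 2756, 2798 and 2798 bp, so that it was far shorter in Mixed-1. At Gata4 it held 194 cytosines and reached from -24323 to 983 bp of the start. No member lay from -21500 to -11000 bp, from -10000 to -6500 bp or from -6000 to -3000 bp, with shorter gaps elsewhere, so much of that run was not measured. By mouse the Gata4 run was 24498, 7249, 23018 and 25307 bp, so that it was far shorter in Mixed-2. Cytosines not read leave gaps in a run, and 1 cytosine at or above the bound ends it.

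The flanks held fewer cytosines. Gata2 had 8.59% ± 0.42 (SD, n = 4 mice) over 53, Gata3 4.42% ± 1.33 over 20, Gata4 48.4% ± 1.6 over 6, Gata5 59.1% ± 5.4 over 3 and Gata6 8.46% ± 1.30 over 54. The mice of Gata4 and Gata5 lay above those of the other genes. The upstream flanks of Gata2, Gata3 and Gata6 were thus low too, while only 6 and 3 cytosines stand for Gata4 and Gata5. At Gata3 and Gata4 the upstream flank begins beyond the far predicted start, so the flanks do not compare like distances from the curated start. Of all 1220 members, 965 or 79.1% had a mean under 20% and 44 or 3.61% a mean over 80%, beside 65.3% and 23.1% of all common cytosines.

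**Figure D3:**
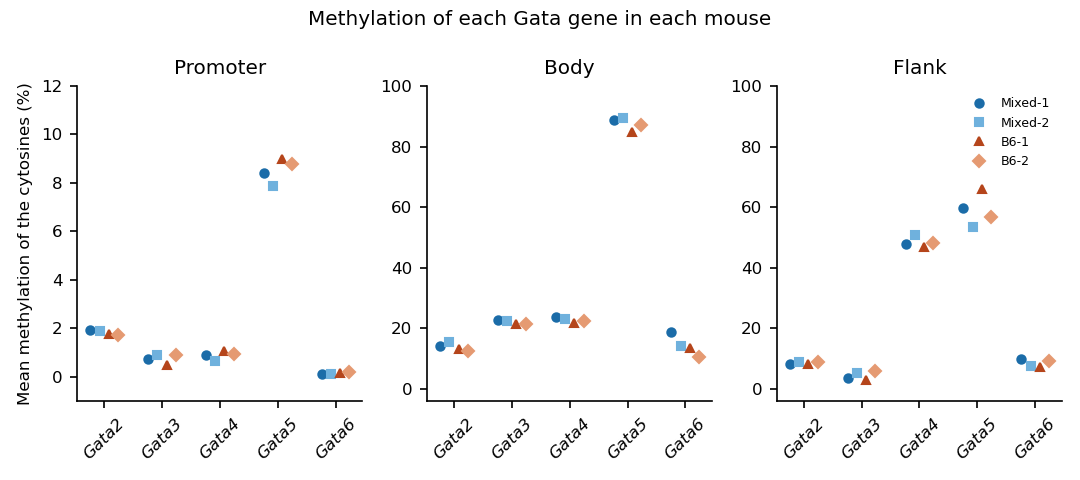
Mean methylation (percent) of the member cytosines of each gene in the promoter, body and flank, 1 point for each mouse. The promoter axis ends at 12% and the others at 100%. Gata5 is highest in all 3 panels, and Gata6 is lowest in the promoter panel in every mouse.

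Gata4 and Gata6 were then set together against Gata2, Gata3 and Gata5, as the genes with a known role in liver against those known chiefly from blood and, for Gata5, from endoderm and heart. The difference of the means over all cytosines was taken in each mouse, and the exact two-sided sign-flip permutation test over 4 mice gives p = 0.13 at the smallest. All mice share the same genes and cytosines. The test and the SD thus measure the spread between mice only and say nothing of other genes with these roles.

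In the promoter, Gata4 and Gata6 had 0.68%, 0.48%, 0.80% and 0.72% over 89 cytosines, with the mice again in the order Mixed-1, Mixed-2 and then both B6 mice. Gata2, Gata3 and Gata5 had 4.27%, 4.07%, 4.38% and 4.36% over 248. The difference was -3.60 points ± 0.03 (SD, n = 4 mice), below 0 in 4 of 4 mice, with p = 0.13 in the exact test. Gata5 carried most of it: without Gata5 it was -0.93 points ± 0.22. Gata6 entered with cytosines downstream of the start only, so the difference also compares unlike positions. It turned to 2.32 points ± 1.80 when the starts of predicted transcripts also defined promoters, which adds exon 2 of Gata6 and the far upstream starts of Gata4 and brings their promoter means to 5.91% and 7.98%.

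In the body, Gata4 and Gata6 had 21.4%, 19.0%, 17.9% and 16.9% over 416 cytosines, and the other 3 genes had 21.6%, 22.0%, 20.3% and 20.2% over 331. The difference was -2.24 points ± 1.37, below 0 in 4 of 4 mice, with p = 0.13 in the exact test. It was not stable to how the sites were taken. Without Gata5 it was -0.38 points ± 1.37 and without Gata3 -0.59 points ± 1.60, each with 1 mouse above 0. Without Gata2 it was -5.89 points ± 1.30. It was 1.78 points ± 0.57 for Gata4 alone and -6.75 points ± 2.76 for Gata6 alone. Outside islands it was 1.87 points ± 1.65, and with each gene given equal weight it was -22.6 points ± 1.5, in which the 9 cytosines of Gata5 count as much as the 210 of Gata3.

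In the flank, Gata4 and Gata6 had 13.6%, 11.8%, 11.2% and 13.2% over 60 cytosines, against 9.06%, 9.62%, 9.15% and 10.1% over 76. The difference was 2.97 points ± 1.14, above 0 in 4 of 4 mice, with p = 0.13 in the exact test. The 6 cytosines of Gata4 made it: Gata6 alone gave -1.03 points ± 1.32. With a coverage minimum of 20 it was 0.06 points ± 1.06, with 2 mice on each side of 0. None of the 3 differences itself differed between the strains beyond the spread of the mice, with p = 0.667 in each exact permutation test of 2 mice against 2, which gives 0.33 at the smallest.

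**Figure D4:**
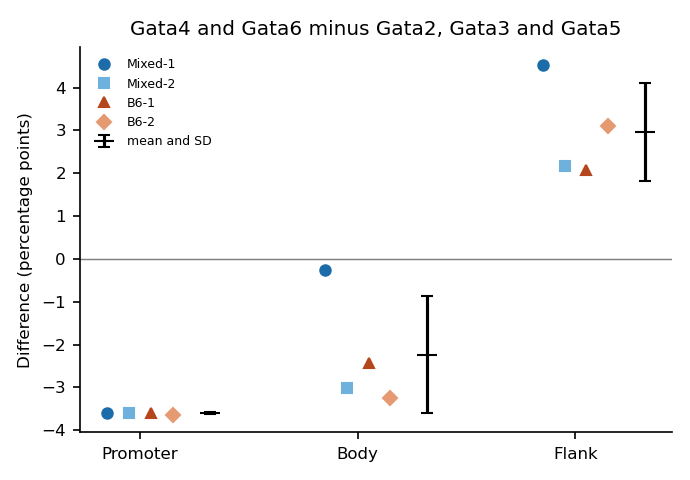
Mean methylation of Gata4 and Gata6 minus that of Gata2, Gata3 and Gata5, in percentage points, by compartment, 1 point for each mouse and a bar for the mean with its SD. The 4 mice lie close together below 0 in the promoter, below 0 in the body and above 0 in the flank.

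The strains were compared next. No member was called as strain-variable, that is, with an adjusted p under 0.01 and strain means at least 25 points apart in the moderated logistic model, while 93 cytosines or 0.00728% of the series were. At an unadjusted p under 0.05, the same model gave 50 of the 1220 members, or 4.10%, beside 2.09% of all common cytosines. Of these 50, 41 were higher in the mixed mice, beside 14634 of the 26728 in the series. Gata6 had 22 of its 276 cytosines (7.97%), all of them higher in the mixed mice, Gata4 had 15 of 289 (5.19%), Gata5 3, Gata2 5 and Gata3 5. Neighbouring cytosines share reads, so these counts are not counts of independent differences. Fisher's exact test with the reads of each strain added up, which takes no account of the spread between mice, called 4 members, 2 at Gata6 and 1 each at Gata4 and Gata5, and 1612 cytosines in the series.

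At the level of whole bodies the strains did not overlap at any of the 5 genes, and each mean over cytosines was higher in both mixed mice. With reads pooled over the body, the difference at Gata2 turned to -0.051 points. The difference of the means, mixed minus B6, was 1.95 points at Gata2, 1.29 at Gata3, 1.26 at Gata4, 3.11 at Gata5 and 4.45 at Gata6. Over all genes, 37.0% of bodies did not overlap between the strains, 23.6% were higher in both mixed mice, and the median difference was 0.27 points. With 2 mice against 2, the exact permutation test gives p = 0.33 for each gene, the smallest it can give. Gata6 stood at the 95.2nd percentile of the body differences, Gata5 at the 90.1st, Gata2 at the 81.0th, Gata3 at the 71.8th and Gata4 at the 71.4th. Deeper B6 libraries go with strain here, and their part in the difference was not tested.

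The Gata6 difference lay in exon 2 and the start of intron 2. In exon 2, 123 of the 168 cytosines were higher in the mixed mice, 31 were lower and 14 were equal, beside 399732 higher, 375544 lower and 501408 equal in the whole series, and 17 of the 22 cytosines with an unadjusted p under 0.05 were there. Mean coverage of the exon was 65.3 and 61.2 reads in the mixed mice and 80.4 and 72.8 in the B6 mice. Between 2000 and 2500 bp from the start the mice had 16.1%, 11.7%, 9.52% and 6.31%, with no overlap of strains. In intron 2 they had 58.9%, 46.8%, 46.4% and 42.1% over 16 cytosines. In both places Mixed-1 stood above the other 3 mice. The body difference of Gata6 was 2.28 points without Mixed-1 and stayed above 0 without any 1 mouse. This stretch was singled out after its values were seen.

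The promoters did not share a direction. The strains did not overlap at 4 of the 5 promoters, beside 35.2% of all promoters. Gata2 was higher in both mixed mice by 0.16 points, and Gata4, Gata5 and Gata6 were lower by 0.22, 0.76 and 0.06 points. Each of these is under 1 point, and none kept its direction under every alternative: with reads pooled Gata2 was at -0.22 and Gata5 at 0.28 points, and with promoters at all RefSeq transcripts Gata4 was at 0.82 and Gata6 at 3.19. In the flanks the strains overlapped at all 5 genes, beside 36.0% of all flanks that did not.

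Single cytosines with the largest strain difference were taken from each gene by rule. At Gata6 it was base 11049412 on the reverse strand, at -3098 bp from the start, with 47.6% and 53.8% in the mixed mice and 6.85% and 3.41% in the B6 mice, at 21, 13, 73 and 88 reads. Its adjusted p was 0.189 in the moderated logistic model. In the mixed mice the nearest reverse cytosines, at -3118 and -3069 bp, had 63 to 72 reads and levels of 5.71% to 11.1%. In the B6 mice these neighbours had 89 to 100 reads and levels of 1.12% to 5.16%. The fall in reads of the mixed mice at base 11049412 was not tested. At Gata4 it was base 63241077 on the reverse strand, in exon 2, with 100% and 80% against 46.9% and 49.2%, at 15, 15, 49 and 61 reads. At Gata5 it was base 180338906 on the forward strand, at -4227 bp from the start, with 30% and 12.1% against 56.4% and 52.5% and an adjusted p of 0.471 in that model. The reverse cytosine of the same CpG went the other way, with 75% and 73.7% in the mixed mice against 64.3% and 54.2%. At these 3 the strains were far apart and no call was made.

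At Gata2 the largest difference was at base 88196426 on the reverse strand, in intron 1, with 50.0% and 52.3% against 26.9% and 29.7%. At Gata3 it was at base 9881361 on the forward strand, at -2761 bp from the curated start, with 82.1% and 77.8% against 61.5% and 54.2%. The adjusted p of the moderated logistic model was 1.0 at the cytosines of Gata2, Gata3 and Gata4. The genotype of the mixed mice at these positions was not analysed here.

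**Figure D5:**
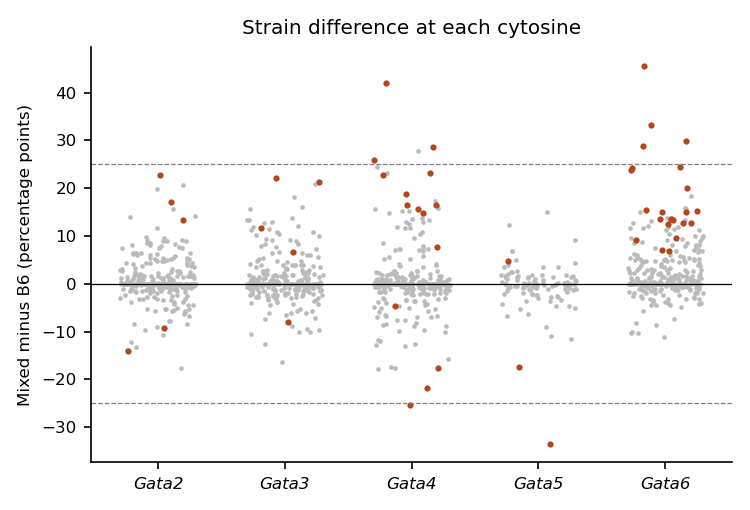
Difference of strain means, mixed minus B6, in percentage points, for each member cytosine by gene; red points have an unadjusted p under 0.05 in the moderated logistic model and dashed lines mark 25 points to each side of 0. All 22 red points of Gata6 lie above 0, and the lowest point of all is the Gata5 cytosine at -4227 bp.

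Both strands were read at 56 CpGs of Gata2, 48 of Gata3, 64 of Gata4, 28 of Gata5 and 64 of Gata6. The median gap between the strands was between 0.48 and 1.70 points. At 5 CpGs it was 25 points or more. The widest was at Gata5, 818 bp into exon 1, where the forward strand had 78.6%, 86.7%, 100% and 100% at 14 to 16 reads and the reverse strand had 18.1%, 14.5%, 16.2% and 17.5% at 83 to 148 reads. This forward cytosine was the one that ended the Gata5 run on its downstream side. At the Gata5 CpGs at -811 and -4227 bp, both given above, forward minus reverse was -31.1 and -29.0 points in the mean of the mice. At Gata4, 2 CpGs near the far predicted start, at -26401 and -26451 bp, differed by 38.6 and -57.9 points, forward minus reverse, in the same direction in all 4 mice.

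The genes that work with GATA factors were read for comparison, as a list of 20 chosen with earlier results of these data known. Of these, 19 had at least 5 promoter cytosines, and 16 of the 19 had a promoter mean under 20%, beside the 91.2% of all genes. The 2 lowest were Zfpm1, which encodes the GATA cofactor FOG1, at 0.088% ± 0.053 (SD, n = 4 mice), and Gatad1 at 0.098% ± 0.109. The 2 highest were Zglp1, a GATA-like zinc finger gene of the germ line, at 86.3% ± 0.6 over 18 cytosines, and Spi1, the gene of the blood factor PU.1, at 77.7% ± 1.5 over 8. Hnf4a, a liver factor, was the third above 20%, at 28.7% ± 4.0 over 18. Gata1, the X-linked member that acts in red cells, had no promoter cytosine in the common set, and its 6 body cytosines averaged 72.4%.

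The tissue label could be checked only weakly from methylation. Of the marker genes, 2 of 8 for hepatocytes (Apoa2 at 0.65% and Fgb at 29.95%), 1 of 6 for leukocytes (at 8.13%) and 1 of 6 for endothelial cells (at 1.71%) had at least 5 promoter cytosines. The share of each cell type in these livers was not measured.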

How the data were processed

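ERRBS files of 4 livers were used, 2 mice for each strain. The study's methods name BSMAP and mm10, while the submitters' processing notes list Bismark and SAMtools, so which tool made these files is not settled here. The authors deposited, for each mouse and each CpG cytosine with at least 10 reads, the coverage as a count of reads and the percent of reads that were C or T. Coverage summed over sites ran from 60654199 to 99215153, with a read counted at each CpG it covers, and mean coverage from 44.2 to 63.7. Levels here are the deposited percent C, and methylated reads are that percent times coverage. At 10 reads a site is coarse, and errors over mice are the ones printed. Amplified fragments are not independent molecules, so depth covers counting error only.

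Sites were placed on GRCm38.p6 with RefSeq, and all 1276597 sites checked (chromosome M left out) lay on a CpG. Islands were at least 200 bp with 50% GC and a CpG ratio of 0.6. The 5 members, the lists and the tests were chosen with earlier results of these data known. Named cytosines were, by rule, the one with the largest strain difference and the highest promoter cytosine of each gene, with any called one, and of the partner list the 2 highest and 2 lowest promoters. The highest promoter cytosines of Gata3 and Gata4 had means of 4.28% and 6.06%.

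Sets were compared with exact sign-flip permutation tests over mice and strains with exact permutation tests, both two-sided. Where nothing but the mouse number separates samples, p-values measure the spread between these mice. Strain-variable cytosines came from a logistic model per site on C and T reads, fitted to all 1276684 common sites with Benjamini-Hochberg adjustment and overdispersion moderated by limma 3.58.1 (R 4.3.3, with version 1.17.8 of data.table) towards 1.80. In simulated data for the comparison of mixed with B6 (100000 sites, 200 changed by 50 points) it recovered 77.5%, and 70.5% with a replicate block, with 0 unchanged sites called. The changed sites were drawn from intermediate levels only, while 79.1% of members had a mean under 20%. Recovery at such low means was not simulated. The share of sites changed was also higher than the share called in the series. The sites that set the moderation were changed 2 times after seeing simulated recoveries of 0% and 66.5%, and with the counts of calls in the series (28 and 66, now 93) in view. All versions called 0 members. Python 3.11.15, numpy 2.4.6, pandas 2.3.3, scipy 1.17.1, numba 0.67.0 and matplotlib 3.10.9 were used. Alternatives were another coverage minimum, merged strands, pooled reads, other promoters, spans and sites, single genes, a replicate block, Fisher's exact test, another threshold, and leaving out each mouse.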

Additional observations from a re-analysis of the deposited data

Results flagged for a closer look

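Of 18 values read in all 4 mice, 1 had a mouse far from the others. The promoter difference of Gata4 and Gata6 from Gata2, Gata3 and Gata5 was lowest in B6-2, at -3.64 points, while Mixed-1, Mixed-2 and B6-1 lay at -3.585, -3.589 and -3.586 points. Chance alone flags about 1 in 20 such groups.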

How the results depend on the processing

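The promoter difference of Gata4 and Gata6 from the other 3 genes turned to 2.32 points with promoters at all RefSeq transcripts and lay between -3.61 and -3.59 without any 1 mouse. The body difference turned to 4.15 points with those promoters, 1.87 outside CpG islands and 1.78 for Gata4 alone, and lay between -2.90 and -1.90 without any 1 mouse. The flank difference turned to -0.91 points with the gene span of curated transcripts, an alternative chosen after seeing the data, and to -1.03 for Gata6 alone, and lay between 2.45 and 3.27 without any 1 mouse. In the other 39 combinations of compartment and setting the direction stayed. Of these, 3 are the replicate block, which cannot change a difference taken within each mouse, and others are the sets without Gata2, Gata3 or Gata5, also chosen after seeing the data. The causes were not tested beyond the change of sites that each alternative makes.

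The mean of the 5 promoter means, 2.43%, was 2.15% with strands merged, 2.02% with reads pooled, 5.16% with promoters of 2000 bp each side and 5.07% at all RefSeq transcripts. The body mean, 32.1%, was 36.1% with promoters of 2000 bp each side, 38.4% at all RefSeq transcripts and 44.5% with the curated span. The flank mean, 25.8%, was 24.5% at a coverage minimum of 20, 26.7% with strands merged, 25.2% with reads pooled, 26.5% at all RefSeq transcripts and 16.6% with the curated span. With a bound of 50% the run measured 7083 bp at Gata2, 4674 bp at Gata3 and 7106 bp at Gata6.

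Of the strain differences (mixed minus B6), the Gata2 promoter turned to -0.22 points, the Gata5 promoter to 0.28, the Gata2 body to -0.051, the Gata3 flank to 0.70 and the Gata6 flank to -0.32 with reads pooled. At all RefSeq transcripts the Gata4 promoter turned to 0.82, the Gata6 promoter to 3.19 and the Gata4 flank to -5.81, and with promoters of 2000 bp the Gata6 promoter turned to 1.11. At a coverage minimum of 20 the flanks of Gata2, Gata3 and Gata6 turned to 0.18, 2.37 and -0.27, and with the curated span that of Gata3 to 0.69. Without any 1 mouse, the Gata3 promoter lay between -0.066 and 0.32, and the flanks of Gata2, Gata3 and Gata6 between -0.56 and 0.28, -1.47 and 1.38, and -0.85 and 1.48 points.

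Same-numbered mice did not deviate together (r = -0.004 over the member cytosines). With 2 mice for each strain and mostly low levels, this check cannot show that the numbers pair nothing. With the replicate block the model called 0 members and 171 cytosines of the series, against 93 without the block, and the block leaves a mean difference as it is, such as 4.45 points at the Gata6 body. Fisher's exact test called 4 members. Series calls numbered 174 at an adjusted p under 0.05, 82 at a coverage minimum of 20, 262 without Mixed-1, 276 without Mixed-2 and 0 without B6-1 or B6-2, and members called were 0 in each. At 10 reads, single cytosines are limited by depth.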

Other observations

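Beyond the common set, 96 cytosines of Gata2, 64 of Gata3, 70 of Gata4, 10 of Gata5 and 40 of Gata6 were read in some mice but not in all. Of these, 53, 16, 22, 4 and 16 were read in both B6 mice and in neither mixed mouse, and 0 at each gene in both mixed mice only. In B6-1 they averaged 7.89% at Gata2, 20.3% at Gata3, 29.4% at Gata4, 47.3% at Gata5 and 26.8% at Gata6, each over the sites read in that mouse. These cytosines entered no comparison.

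Body means of the endoderm and heart partners are given beside the median of 77.4% over all gene bodies. The Gata2 body, at 13.9%, stood at the 9.33rd percentile of these, and the list was chosen with earlier results known. Tbx5, a heart and limb factor, had 11.1% over 212 body cytosines. Nkx2-5 had 4.09% over 78 and Hand2 1.21% over 25, both heart factors. Foxa2, an endoderm factor, had 8.82% over 11, and Tbx20, a heart factor, had 3.93% over 12. Hnf4a, a liver factor, had 58.4% over 28. Among the blood partners, Tal1 had 12.3% over 51 body cytosines, Runx1 41.8% over 187, Spi1 60.4% over 9 and Ldb1 74.9% over 19, while Klf1 had 3 and Lmo2 had 0. The FOG1 gene Zfpm1 had a body at 65.5% over 227 cytosines beside its promoter near 0.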
